A study of Mus musculus with 4 samples.

Results

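Pdcd1, Lag3, Havcr2, Tigit, Ctla4, Cd96 and Cd160 are 7 of the 32285 genes counted in the 2 single-cell RNA-Seq libraries, and they were chosen by name as inhibitory receptors of lymphocytes. Each library pooled CD45-sorted cells from YUMMER1.7 tumors, a mouse melanoma line grown under the skin of male WT C57BL/6J mice of 7 to 8 weeks, sorted cells without CD45 being added back as the smaller share. Every mouse carried a tumor and received antibody. The isotype arm received IgG1, the anti-PD-1 arm clone RMP1-14 at 10 mg/kg, the anti-MIF arm clone IIID.9 at 20 mg/kg, and the anti-PD-1/anti-MIF arm both. MIF, macrophage migration inhibitory factor, is a cytokine made by tumor and immune cells. The long treatment cohort had 4 doses over 2 weeks with harvest on day 21, and the short treatment cohort had 2 doses over 1 week with harvest on day 14. One hashtagged sample stood for each arm of a cohort, the hashtags do not separate mice, and each cohort was 1 library, so cohort and library cannot be told apart. The isotype arms are the only controls.

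After filtering, 1671 cells of the 4 arms were kept in the long cohort (204 isotype, 319 anti-PD-1, 879 anti-MIF and 269 anti-PD-1/anti-MIF), with 15039110 gene UMIs in all. The short cohort kept 3119 cells (745, 1370, 556 and 448 in the same order), with 19443650 UMIs. A UMI, or unique molecular identifier, marks 1 captured RNA molecule. Of the barcodes in the files, 20 occurred in both libraries, and 9 of these lay among the classified cells. Cells were classed by the genes they held: CD8 T cells by Cd3e with Cd8a (386 cells), CD4 T cells by Cd3e with Cd4 (63), NK cells by Ncr1 without Cd3e (141) and myeloid cells by Lyz2 without Cd3e and with no lymphocyte rule met (3153), while 439 long-cohort and 608 short-cohort cells fell in no class. Taken as written, with cells allowed in more than 1 class, the rule gave at most 4 more cells in any lymphocyte class of a cohort. The arm of each cell was read from its hashtag, an antibody-borne oligonucleotide, and the 15-base barcodes are shown because they alone assign a receptor UMI to a treatment.
isotype: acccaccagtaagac
anti-PD-1: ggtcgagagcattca
anti-MIF: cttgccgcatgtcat
anti-PD-1/anti-MIF: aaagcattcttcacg

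The classes carried the markers of their names. In CD8 T cells, Cd3g had a UMI in 94.1% of long-cohort and 90.1% of short-cohort cells, and Cd8b1 in 91.7% and 93.4%. In CD4 T cells, Cd8b1 had a UMI in 3.70% and 2.78%. NK cells held Klrb1c in 94.1% and 75.7% and Prf1 in 88.2% and 89.7%, but also Trbc2 in 29.4% and 26.2% and Trdc in 20.6% and 15.9%, genes of T cell receptor chains. Myeloid cells held Csf1r in 85.0% and 80.9% and C1qa in 47.6% and 17.8%. B cell markers were near 0 in CD8 T cells, with 1 UMI over 204 cells and 2 UMIs over 182 cells.

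Inhibitory receptors are surface proteins that dampen T and NK cell responses when they meet their ligands on tumor cells or myeloid cells. T cells that meet antigen for long periods, as in tumors, are known to carry several of them at once, a state called exhaustion that is also marked by the transcription factor TOX and by loss of TCF-1, the product of Tcf7. PD-1, encoded by Pdcd1, and CTLA-4, encoded by Ctla4, belong to the CD28 family. LAG-3 binds MHC class II, TIM-3 is the product of Havcr2, TIGIT and CD96 bind nectin-like proteins such as CD155, and CD160 binds HVEM.

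The first question was in which cells each receptor was made. In CD8 T cells all 7 were found in all 8 arms. Levels are given as CPM, the UMIs of a gene scaled to a fixed total of gene UMIs for each class and arm, and the share is the percent of cells with at least 1 UMI. Pdcd1 lay between 214.9 and 650.7 CPM over the 8 arms of CD8 T cells, with a median of 453.3, and between 136.2 and 1123 CPM over the 7 arms that had at least 5 CD4 T cells, with a median of 269.9. Those ranges overlapped. In NK cells Pdcd1 was at 0 in 6 of 7 arms, and the 11 UMIs of the short anti-PD-1 arm came from 2 cells of 77, with 8 and 3 UMIs. In myeloid cells it lay between 0 and 3.56 CPM, with a UMI in 1.14% of long-cohort and 0.503% of short-cohort cells. Myeloid cells lack Pdcd1, Lag3, Tigit, Ctla4, Cd96 and Cd160 for the most part, and their shares, at most 1.97% for these 6 genes over a whole cohort, are used as the background level here. Their source was not tested, and the class rule had already left out cells with Cd3e. Their median depth was higher than that of lymphocytes, at 10439 UMIs per cell in the long and 6570 in the short cohort, against 5975 and 4286 in CD8 T cells.

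**Figure D1:**
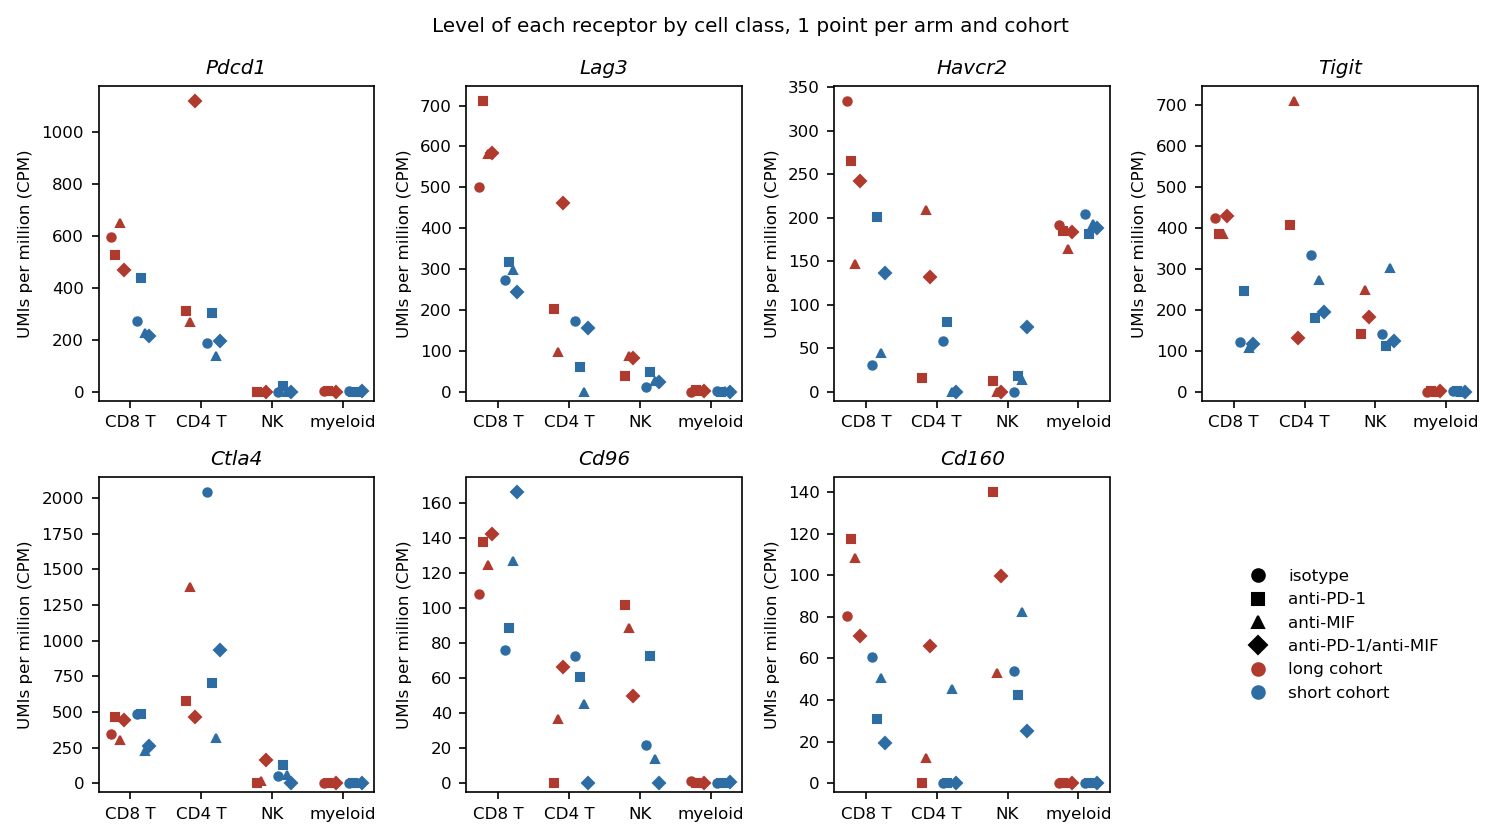
Level of each receptor (CPM, vertical axis) in the 4 cell classes, with 1 point for each arm and cohort that held at least 5 cells of the class (red, long; blue, short; marker shape, arm). The points show Pdcd1 near 0 in NK and myeloid cells, Havcr2 between 163.6 and 204.6 CPM in every myeloid arm, and Ctla4 up to 2043 CPM in CD4 T cells.

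Between CD8 T and CD4 T cells, 3 of the 6 receptors tested were called. Lag3 was 3.42-fold higher in CD8 T cells (log2 difference 1.77, 95% interval 1.16 to 2.38, adjusted p = 0.000138, edgeR). Cd96 was also called higher, but it was below the filter in the fits of CD4 T cells alone, with 13 UMIs in 62 cells. It entered through the other classes, so its call is a description and no fitted fold is given. Ctla4 was 2.19-fold lower (-1.13, interval -1.76 to -0.49, adjusted p = 0.015). Of the 2880 genes tested, 6.6% were called higher and 5.24% lower in CD8 T cells, against 2 of 6 (Cd96 among them) and 1 of 6 receptors. The median log2 difference was 0.89 over the 6 receptors and 0.06 over all genes. Pdcd1 (log2 difference 0.59, interval 0.01 to 1.18, adjusted p = 0.197), Havcr2 (1.18, adjusted p = 0.114) and Tigit (-0.26, interval -0.85 to 0.34, adjusted p = 0.658) did not pass, and Cd160 was below the count filter. The CD4 T sums were small, at 5 to 15 cells an arm. The Ctla4 call was lost without the long anti-MIF, short isotype or short anti-PD-1/anti-MIF arm (log2 differences -0.88, -0.86 and -1.03). The Cd96 call was lost without the long anti-PD-1 or long anti-MIF arm.

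The arm values behind these calls were as follows. Lag3 lay between 244.2 and 712.3 CPM in CD8 T cells (median 409.2) and between 0 and 462.5 CPM in CD4 T cells (median 155.5). The lower CD8 T arms overlapped the upper CD4 T arms, and the fit compared the classes within arms. Ctla4 lay between 228.1 and 487.2 CPM in CD8 T cells (median 394.1) and between 317.8 and 2043 CPM in CD4 T cells (median 705.4). The spread of Ctla4 among CD4 T arms was wide, with the highest value in the short isotype arm and the lowest in the short anti-MIF arm. Cd96 lay between 76.1 and 166.0 CPM in CD8 T cells and between 0 and 72.4 CPM in CD4 T cells, so that the arms of the classes did not overlap.

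CD4 T cells with a Foxp3 UMI, the gene that defines regulatory T cells, held Ctla4 at a higher level than the other CD4 T cells when the 4 arms of a cohort were pooled. Only the long anti-MIF arm held 5 cells on both sides, so the comparison could not be fitted and has no test. In the long cohort the 10 Foxp3-positive cells held Ctla4 at 1239 CPM (95% Poisson interval 1032 to 1475), against 486.4 (330.5 to 690.5) in the 17 others. In the short cohort the 11 Foxp3-positive cells held it at 1812 CPM (1515 to 2150), against 807.7 (636.4 to 1011) in the 25 others. Both pairs of pooled intervals were separate, with the Foxp3-positive cells higher. The arms contributed unequally, and the short isotype arm alone held 141 of the 207 Ctla4 UMIs of that cohort. Within arms, on 1 to 9 cells a side, Ctla4 was higher in the Foxp3-positive cells in 5 of the 6 arms that held both kinds, with separate intervals in 4. In the long anti-MIF arm it was 1696 CPM (1375 to 2069) against 616.9 (345.2 to 1017), and in the short isotype arm 2664 (2165 to 3243) against 1318 (949.9 to 1782). The short anti-PD-1/anti-MIF arm lay the other way, with 375.8 CPM in its 1 Foxp3-positive cell (77.5 to 1098) and 1184 (732.8 to 1810) in the others. Pooled in the same way, Lag3 and Pdcd1 were lower in the Foxp3-positive cells of the long cohort, Pdcd1 at 157.4 CPM (89.9 to 255.5) against 721.8 (528.5 to 962.8) and Lag3 at 78.7 (34.0 to 155.0) against 376.6 (241.3 to 560.4). Both were lower in each of the 2 long arms with both kinds of cell, where the intervals overlapped for Lag3 and were separate for Pdcd1 in 1 arm. In the short cohort their pooled intervals overlapped. Within its 4 arms with both kinds of cell, Pdcd1 was lower in the Foxp3-positive cells in 4 and Lag3 in 3, with overlapping intervals. In the short anti-MIF arm Lag3 was at 0 on both sides. Tigit had a UMI in 10 of 10 and 9 of 11 Foxp3-positive cells, and in 10 of 17 and 11 of 25 of the others, with median depths of 9169 and 4784 UMIs against 3781 and 3377. Ikzf2, a transcription factor of regulatory T cells, had a UMI in all 10 and all 11 Foxp3-positive cells. These intervals cover counting error only.

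Against NK cells, 5 of the 6 receptors tested were called higher in CD8 T cells, where 7.01% of the 2880 genes were. Of these 5, Ctla4 passed the filter in the fits of NK cells alone. It was 5.53-fold higher in CD8 T cells (log2 difference 2.47, adjusted p = 2.29e-05, edgeR). Ctla4 had 82 UMIs in 137 NK cells and lay between 0 and 166.0 CPM over the NK arms, with 2 of the 7 at 0. Pdcd1, Lag3, Havcr2 and Cd96 were below the filter in the fits of NK cells alone, so they entered this comparison through the T cells. Their calls, and the count of 5 of 6, are therefore a description, and no fitted fold is given. They rest on 11, 41, 14 and 55 UMIs in 137 NK cells, and Havcr2 was at 0 in 3 of the 7 NK arms. The 11 Pdcd1 UMIs came from 2 NK cells. Without the short anti-PD-1 arm, which held all 11, 0 UMIs were left in 64 NK cells, where 3 counts would be 6.8 CPM. CD8 T cells held 513.8 CPM over the same 7 arms. That arm was left out because it held these UMIs, so no fold is given. Cd96 kept its call in 2 of the 7 leave-one-out fits that tested it. Tigit was the exception among the 6, at 107.7 to 430.1 CPM in CD8 T cells (median 315.6) and 113.0 to 301.3 CPM in NK cells (median 140.7). Its log2 difference was 0.59 (interval -0.001 to 1.18, adjusted p = 0.198). Cd160 was below the filter in this fit and lay at 24.9 to 140.0 CPM in NK cells and 19.5 to 117.6 CPM in CD8 T cells, with overlapping arms.

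Between CD4 T and NK cells, 4 of the 6 receptors were called higher in CD4 T cells, where 9.31% of the 2880 genes were. Of these 4, Ctla4 passed the filter in the fits of NK cells alone, on the same 82 NK UMIs (log2 difference 3.59, adjusted p = 8.54e-08, edgeR). Pdcd1, Havcr2 and Lag3 did not and entered through the T cells, on the same 11, 14 and 41 NK UMIs. Their calls are therefore a description, and no fitted fold is given. Without the short anti-PD-1 arm the NK sums of Pdcd1 were 0, so that fit gives no bound. The Havcr2 call was lost in 4 of the 8 leave-one-out fits, to an adjusted p of 0.385 without the long anti-MIF arm, and the Lag3 call in 2 (without the long anti-PD-1/anti-MIF or the short isotype arm). Tigit (0.84, adjusted p = 0.0711) and Cd96 (-0.64, adjusted p = 0.51) did not pass.

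Havcr2 was the receptor that myeloid cells held as well, in all 8 arms. It lay between 163.6 and 204.6 CPM in the 8 myeloid arms (mean 186.4 ± 11.7, SD, n = 8 arms) and between 30.5 and 334.6 CPM in the 8 CD8 T arms (mean 175.1 ± 106.3). The log2 difference was -0.26 (interval -0.81 to 0.29, adjusted p = 0.407), and the myeloid arms varied far less than the CD8 T arms. Pdcd1, Lag3, Tigit, Cd96 and Ctla4 were called higher in CD8 T cells, where 33.4% of all 2880 genes tested were. They were below the filter in the fits of myeloid cells alone and entered through the lymphocytes, with 31, 30, 19, 6 and 65 UMIs in 3153 myeloid cells, the level used as background above. Their calls are therefore a description, and no fold is given. TIM-3 is known as a receptor of macrophages and dendritic cells as well as of T cells.

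Other lists were read in the same class comparisons, as counts of called genes. Against CD4 T cells, CD8 T cells were called higher in Klrc1 and Cd244a and lower in Cd5 (log2 difference -2.02). These were the 3 genes called of 5 tested other inhibitory receptors, where 6.6% of all genes were called higher and 5.24% lower. In the fits of CD4 T cells alone 2 other inhibitory receptors, 6 transcription factors, 6 brakes and 5 activating counterparts passed the filter. Genes that did not pass it entered through the other classes, so these list counts are a description. Among genes called higher in CD8 T cells, a fold is given only for Cd226, from the list that passed in full. Cd244a encodes 2B4, a receptor of NK and CD8 T cells, and Cd5 a brake on T cell receptor signalling. Of 10 tested transcription factors, Nr4a2 was called higher and Batf lower (-1.41). Of 10 tested intracellular brakes, Cblb, Ptpn6 and Ptpn22 were called higher and Dgka (-1.04) lower. Of the 5 activating counterparts, Cd226, which competes with TIGIT and CD96 for their ligand, was higher (1.55), and Tnfrsf4, which encodes OX40 (-2.09), and Icos (-1.54) were lower.

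Against NK cells, CD8 T cells were called higher in Klrc1 and Vsir and lower in Cd244a (log2 difference -1.22), of 5 tested other inhibitory receptors. Over all genes, 7.01% were called higher and 8.09% lower. Cd5 was also called higher, with 0 UMIs in long-cohort and 2 in short-cohort NK cells, so no fitted fold is given. Tox, Batf and Nr4a2 were called higher and Eomes (-3.65), a factor of NK cells, lower, of 10 transcription factors. Of the activating counterparts 4 of 5 were called higher, and of 10 brakes 3 were (Ubash3a, Cblb and Dgka). In the fits of NK cells alone 3 other inhibitory receptors, 9 transcription factors, 2 activating counterparts and 6 brakes passed the filter. Genes that did not pass it entered through the other classes, so these list counts are a description. No fold is given for the genes called higher in CD8 T cells.

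By mean CPM over arms, Pdcd1, Lag3 and Cd96 were highest in CD8 T cells, Ctla4 and Tigit in CD4 T cells, Havcr2 in myeloid cells and Cd160 in NK cells. Pdcd1 ran from CD8 T (424.9 ± 168.5 CPM, SD, n = 8 arms) through CD4 T (361.0 ± 342.2, n = 7) to NK (3.17 ± 8.39, n = 7) and myeloid cells (1.41 ± 1.19, n = 8), and neither the first pair nor the last pair differed beyond their spread. Cd160 ran from NK (70.9 ± 39.3) and CD8 T (67.4 ± 34.5) to CD4 T (17.7 ± 27.1) and myeloid cells (0.0928 ± 0.136), and the means of NK and CD8 T cells lay within 1 SD of each other.

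Shares were compared after each cell was thinned to 2000 UMIs, since deeper cells show more genes. Pdcd1 then had a UMI in 65.3% of long-cohort CD8 T cells, against 84.8% unthinned, and in 43.3% of short-cohort CD8 T cells, against 61.5%. Thinning left out 14 of 204 and 18 of 182 CD8 T cells as too shallow. Over the 7 arms with 5 or more thinned cells in both classes, the Pdcd1 share was 49.6 ± 14.6 percentage points (SD) higher in CD8 T than in NK cells, higher in 7 of 7 arms (exact two-sided sign-flip permutation p = 0.0156, the smallest that 7 arms allow). Lag3 (39.9 points), Ctla4 (33.5) and Cd96 (18.2) were also higher in 7 of 7 arms with the same exact p of 0.0156. The Tigit share differed by 0.0313 ± 17.7 points, in both directions among the arms (exact permutation p = 1). For CD8 T against CD4 T cells only 5 arms could be used, which cannot give an exact permutation p below 0.0625, and Lag3 (20.3 points) and Cd160 (9.96 points) were higher in CD8 T cells in 5 of 5. Of the 21 tests, 4 had an unadjusted exact p under 0.05 and 0 passed with adjustment over the 21.

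The second question was how the receptors differed between the long and the short cohort. The cohorts differ in doses, harvest day and library, which cannot be told apart, and the isotype arms are part of the contrast. In CD8 T cells 5 of the 7 rose in the long cohort relative to the short one, each about 2-fold, while 2.58% of the 4928 genes tested were called higher. Fold changes were 2.49 for Tigit (log2 1.31, 95% interval 0.84 to 1.79, adjusted p = 0.00522, edgeR), 2.43 for Cd160 (1.28, adjusted p = 0.0349), 2.18 for Havcr2 (1.12, interval 0.48 to 1.77, adjusted p = 0.0454), 1.98 for Lag3 (0.98, interval 0.62 to 1.35, adjusted p = 0.0056) and 1.79 for Pdcd1 (0.84, interval 0.40 to 1.29, adjusted p = 0.031). Ctla4 (0.08, interval -0.34 to 0.49, adjusted p = 0.858) and Cd96 (0.16, interval -0.34 to 0.66, adjusted p = 0.733) did not pass. The median log2 change was 0.98 over the 7 receptors and 0.02 over all genes. DESeq2 called Pdcd1, Lag3, Havcr2 and Tigit, and 1.5% of all genes, as higher. Lag3 and Tigit passed in each of the 8 leave-one-out fits. Cd160 fell short in 4 of them, Havcr2 in 5 and Pdcd1 in 3, so that 2 to 5 receptors were called, with 2 where either the short anti-MIF or the short anti-PD-1/anti-MIF arm was left out and 3 without the short isotype arm. The 4 arms of a cohort share a library, and p-values over arms do not cover a difference between the 2 libraries.

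Pdcd1 in CD8 T cells was 597.3 CPM in the isotype, 527.5 in the anti-PD-1, 650.7 in the anti-MIF and 467.7 in the anti-PD-1/anti-MIF arm of the long cohort, and 274.1, 438.9, 228.1 and 214.9 CPM in the same order in the short cohort. All 4 long arms were above all 4 short arms, and the short anti-PD-1 arm came closest to the long ones. Tigit was 425.8, 386.4, 385.6 and 430.1 CPM in the long and 121.8, 245.6, 107.7 and 117.2 CPM in the short cohort. The groups did not overlap, the long arms lay close together, and the short anti-PD-1 arm was again the highest of its cohort. Lag3 was 500.5, 712.3, 582.5 and 584.6 CPM in the long and 274.1, 317.9, 297.9 and 244.2 CPM in the short cohort, again without overlap.

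Havcr2 was 334.6, 265.4, 146.6 and 242.2 CPM in the long and 30.5, 200.5, 44.4 and 136.7 CPM in the short cohort, so that the long anti-MIF arm lay below the short anti-PD-1 arm and the groups overlapped. Cd160, which binds HVEM, was 80.2, 117.6, 108.5 and 71.0 CPM in the long and 60.9, 30.7, 50.7 and 19.5 CPM in the short cohort, with no overlap but with only 31 UMIs over the whole short cohort. Ctla4 overlapped widely, at 305.3 to 467.0 CPM in the long and 228.1 to 487.2 CPM in the short cohort. Cd96 did too, at 107.8 to 142.0 CPM against 76.1 to 166.0 CPM.

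**Figure D2:**
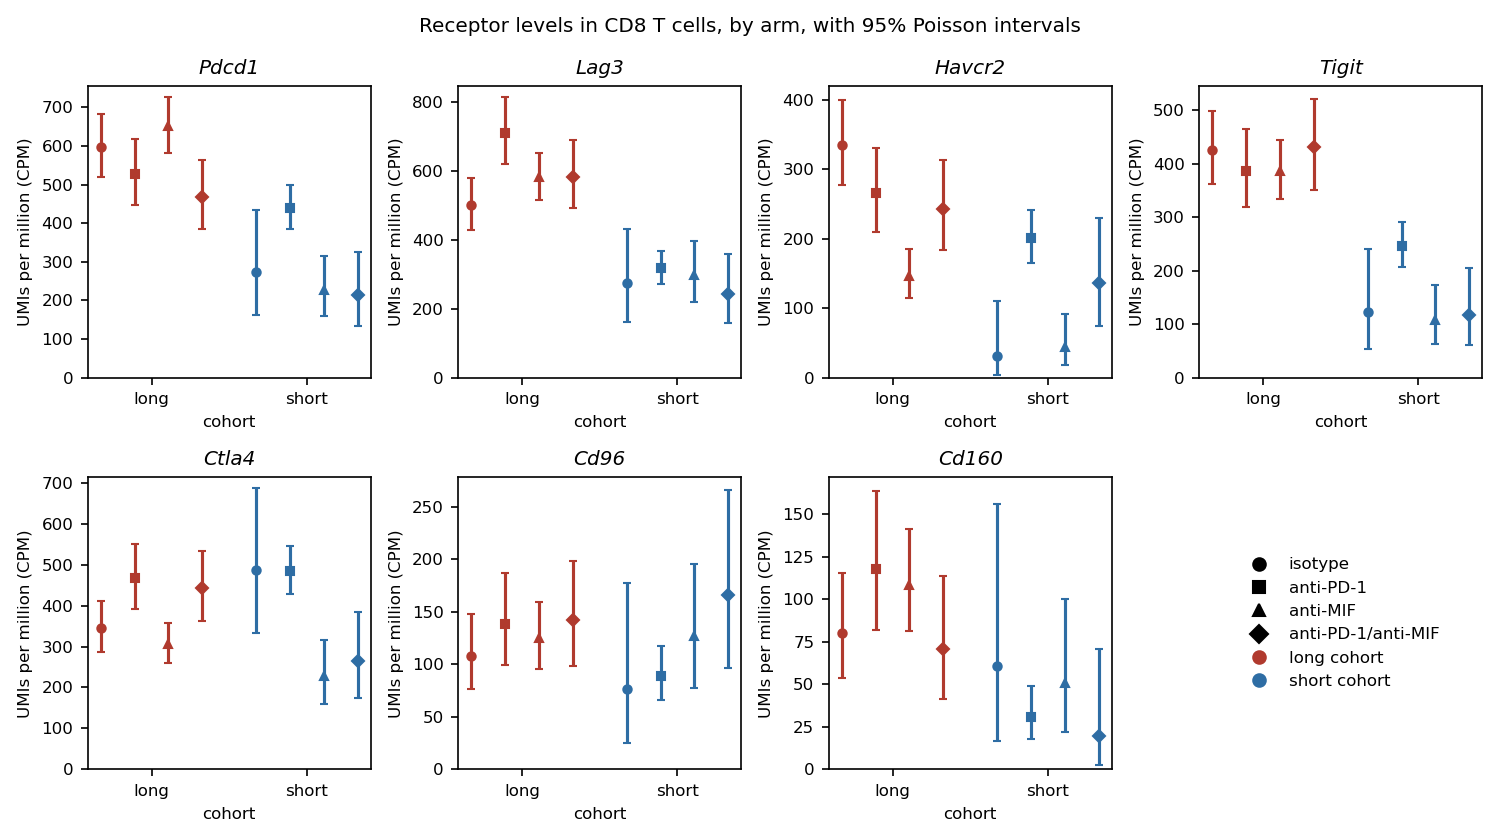
Receptor levels in CD8 T cells (CPM, vertical axis) for the 4 arms of the long (red) and short (blue) cohort, with bars for the 95% Poisson intervals, which cover counting error only. For Pdcd1, Lag3, Tigit and Cd160 all 4 long arms lie above all 4 short arms, whereas Ctla4 and Cd96 overlap.

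The share of cells with a UMI was compared by an exact permutation test over the 4 and 4 arms, added after the data were seen, and 0 of the 7 receptors passed with adjustment over the 7. Before adjustment, the thinned Tigit share was 49.1% ± 7.37 (SD, n = 4 arms) in the long and 21.7% ± 10.7 in the short cohort (exact two-sided p = 0.0286, the smallest that 4 against 4 arms allow). Pdcd1 (64.9% ± 3.69 against 39.0% ± 6.73) and Lag3 (58.8% ± 4.28 against 37.8% ± 8.47) had the same exact p = 0.0286, and for all 3 the arms did not overlap. Havcr2 (28.4% against 11.5%, exact permutation p = 0.0857), Cd160 (13.6% against 7.87%, exact p = 0.114), Ctla4 (41.9% against 36.5%, exact p = 0.571) and Cd96 (24.4% against 23.0%, exact p = 0.743) had larger p-values, and their arms overlapped.

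The number of receptors detected per CD8 T cell was higher in the long cohort. It is made of the same shares of the single receptors that were higher there, and whether the receptors met in 1 cell more often than those shares give was not tested. At 2000 UMIs per cell, 4 or more of the 7 were detected in 31.6% of 190 long-cohort cells (95% Clopper-Pearson interval 25.0 to 38.7) and in 13.4% of 164 short-cohort cells (8.60 to 19.6). By arm, in the order used above, the long cohort had shares of 35.3%, 35.7%, 27.4% and 28.6%. The short cohort had 0%, 17.1%, 6.67% and 10.5%, and the 10 cells of its isotype arm allow up to 30.9% by the same interval. Every long arm was above every short arm. The mean number per cell was 2.78 in the long and 2.01 in the short cohort, and 4.21% and 10.98% of cells had none. Cells of 1 arm are not replicates, so these counts carry no test.

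**Figure D3:**
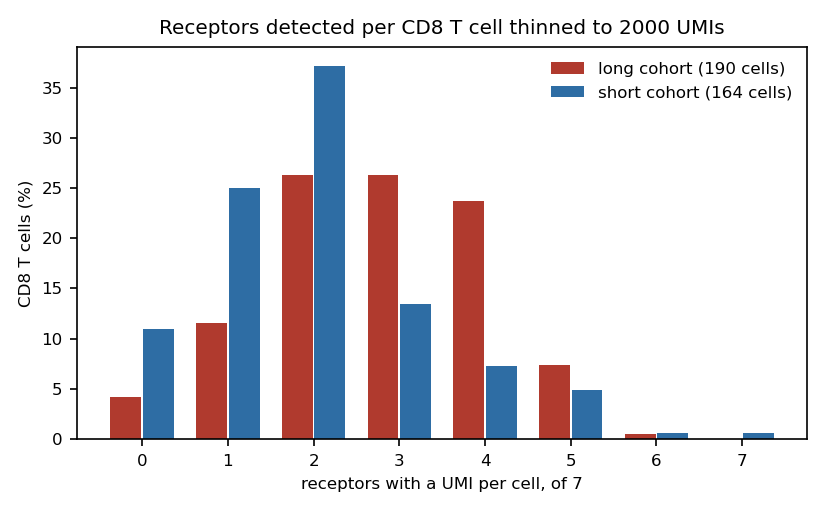
Percent of CD8 T cells (vertical axis) by the number of the 7 receptors with a UMI (horizontal axis), after thinning each cell to 2000 UMIs, in the long (red, 190 cells) and short (blue, 164 cells) cohort. The long cohort is shifted to higher numbers, with 31.6% of cells at 4 or more against 13.4%.

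Detection of the other receptors was counted in cells with and without a Pdcd1 UMI, pooled over the 4 arms of a cohort, which differ in their Pdcd1 share, and these counts carry no test. In the long cohort 79 of 124 Pdcd1-positive cells (63.7%) and 33 of 66 others had a Lag3 UMI, and in the short cohort 35 of 71 (49.3%) and 28 of 93 (30.1%). Of cells with and without Pdcd1, 40.3% and 37.9% had Ctla4 in the long cohort, and 50.7% and 34.4% did in the short one. Tigit was in 46.8% of the positive and 53.0% of the other long-cohort cells, and in 32.4% and 26.9% in the short cohort. Havcr2 was in 29.0% and 25.8% of cells with and without Pdcd1 in the long cohort, and in 22.5% and 17.2% in the short one. The share was higher beside Pdcd1 in both cohorts for Lag3, Ctla4 and Havcr2, and for Cd160, where the long-cohort shares were nearly equal. Cd160 was in 17 of 124 (13.7%) and 9 of 66 (13.6%) long-cohort cells with and without Pdcd1, and in 6 of 71 and 6 of 93 short-cohort cells. For Tigit and Cd96 (25.8% and 19.7% long, 21.1% and 22.6% short) the cohorts had opposite directions.

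Other inhibitory receptors and regulators of T cell state were read beside the 7. Klrc1, which encodes the NKG2A receptor of NK and CD8 T cells, was the 1 of 7 tested genes of the list of other inhibitory receptors that rose in the long cohort (log2 0.60, adjusted p = 0.0377), and none fell. Tox rose (0.94 ± 0.22 SE, adjusted p = 0.0236) and Tcf7 fell by 2.38 on the log2 scale (adjusted p = 0.0261), the 2 genes called of 11 tested transcription factors, where 2.58% of all genes rose and 2.23% fell. Tox was 671.9, 463.7, 506.1 and 421.7 CPM in the long arms and 213.2, 289.0, 177.4 and 341.8 CPM in the short arms, without overlap. Tcf7 was 5.53, 10.1, 8.03 and 16.7 CPM in the long arms against 45.7, 27.1, 76.1 and 58.6 CPM in the short arms, on 2 to 15 UMIs an arm. None of the 11 tested intracellular brakes (such as Ptpn6 and Cblb), the 5 activating counterparts (such as Cd28 and Cd226) or the 4 tested ligands was called.

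Other measures were read beside the cohort difference. Gm42418, a gene that overlaps ribosomal RNA and gave the smallest p in this comparison, fell by 1.44 on the log2 scale and took 2.25% to 3.23% of the UMIs of CD8 T cells in the long arms and 5.95% to 10.2% in the short arms. Gm2682 (-2.08) and Eef1a1 (0.79) came next by p. Median depth was 5338 to 6326 UMIs in the long and 3996 to 4445 in the short arms. Of the 6 NK markers, Klra8 was at 0 in both cohorts and Klrb1c had a UMI in 2.45% and 1.10% of CD8 T cells, and the summed level of the list was 871.7 to 1378 CPM in the long and 502.4 to 796.5 CPM in the short arms, with Prf1 the most abundant in the long and Klrk1 in the short cohort. Myeloid markers summed to 102.3, 127.7, 668.8 and 87.7 CPM in the long and 45.7, 166.2, 164.8 and 9.77 CPM in the short arms, which overlapped and were highest in the long anti-MIF arm, with Fcer1g the most abundant of the 6 and C1qa, at 111 UMIs over the long cohort, found in 5.39% of its CD8 T cells. Of the myeloid list, Csf1r, Cd68 and Itgam were at 0 in the long isotype arm, and Csf1r, C1qa and Itgam in the long anti-PD-1/anti-MIF arm. The part of these in the receptor differences was not tested.

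The 250 bases before the transcription start are shown for receptors that rose (Pdcd1, Havcr2, Tigit) and for Cd96, which did not pass, from RefSeq promoters on GRCm38.p6. The table matched 6 of the 7 genes, all but Lag3. Capitals mark matches, on either strand, to motif letters of factor families that act in T cells: TGGAAA (NFAT core), TGANTCA (AP-1), TGTGGT (Runx) and CTTTGA (TCF), none of which overlapped another match in these 4 windows.
Pdcd1 (chr1:94052554-94052803, minus strand): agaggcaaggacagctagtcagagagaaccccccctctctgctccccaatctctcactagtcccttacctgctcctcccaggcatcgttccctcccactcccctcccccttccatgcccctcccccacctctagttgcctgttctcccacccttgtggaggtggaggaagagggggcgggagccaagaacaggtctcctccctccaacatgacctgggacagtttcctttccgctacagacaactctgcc
Havcr2 (chr11:46454681-46454930, plus strand): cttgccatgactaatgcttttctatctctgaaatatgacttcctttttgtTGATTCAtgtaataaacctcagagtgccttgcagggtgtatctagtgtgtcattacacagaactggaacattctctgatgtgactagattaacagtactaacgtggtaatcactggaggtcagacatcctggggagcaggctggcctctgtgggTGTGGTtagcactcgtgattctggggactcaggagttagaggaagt
Tigit (chr16:43664185-43664434, minus strand): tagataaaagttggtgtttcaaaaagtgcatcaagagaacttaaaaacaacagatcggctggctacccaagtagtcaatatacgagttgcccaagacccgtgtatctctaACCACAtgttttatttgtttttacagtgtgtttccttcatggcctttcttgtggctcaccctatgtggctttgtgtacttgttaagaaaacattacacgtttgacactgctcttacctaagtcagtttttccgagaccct
Cd96 (chr16:46120249-46120498, minus strand): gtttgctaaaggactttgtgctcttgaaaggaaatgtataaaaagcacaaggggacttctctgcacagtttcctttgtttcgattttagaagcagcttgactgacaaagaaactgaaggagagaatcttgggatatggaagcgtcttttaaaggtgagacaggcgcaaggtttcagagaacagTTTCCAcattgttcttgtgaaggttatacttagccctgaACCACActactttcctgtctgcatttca

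The Ctla4 start in that table lies inside the gene span given by the other annotation used here. The Runx letters were found in 4 of the 6 windows, those of Havcr2, Tigit, Cd96 and Cd160, against 14% of all 32851 promoter windows of that length. NFAT core letters were in 2 of 6 (Ctla4 and Cd96) against 18.6%, AP-1 letters in 1 of 6 (Havcr2) against 6.75%, and TCF letters in 0 of 6 against 13.8%. The Pdcd1 window held none of the 4 and the Cd96 window held 2. Matches occurred both in receptors that rose and in Cd96 and Ctla4, which did not pass. A match is a description of the letters only. In the annotation (GENCODE vM21, GRCm38) Pdcd1 spans chr1:94038305-94052553 and Ctla4 chr1:60887000-60915832 on the same chromosome, and Tigit (chr16:43648867-43664146) and Cd96 (chr16:46035657-46120251) share chromosome 16. Lag3 is at chr6:124904361-124911705, Havcr2 at chr11:46454935-46481255 and Cd160 at chr3:96798763-96829351. All 7 are protein-coding genes, and UMIs were counted per gene without regard to exon.

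Outside CD8 T cells no receptor passed between the cohorts. In CD4 T cells 0 of 5 tested receptors passed, where 0.182% of 1648 genes did. The intervals were wide, as for Pdcd1 (log2 0.97, interval -0.27 to 2.22) and Tigit (1.05, interval -0.06 to 2.16). In NK cells 0 of 3 passed, where 0.459% of 1961 genes did, and Tigit was at 0.09 (interval -0.67 to 0.85). In myeloid cells Havcr2, the 1 receptor tested, was at -0.10 (interval -0.35 to 0.15, adjusted p = 0.601), where 8.98% of 9866 genes were called. None of these 9 tests had an unadjusted p under 0.05, and DESeq2 called none. Whether the change differed between the classes was not tested.

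The third question was whether anti-PD-1 or anti-MIF changed the receptors. In CD8 T cells 0 of 7 were called for either antibody by edgeR, as were 0% and 0% of the 4928 genes, with 257 and 208 genes at an unadjusted p under 0.05. DESeq2 likewise called 0 (0% of genes in both, with 111 and 75 at an unadjusted p under 0.05). With anti-PD-1, Pdcd1 itself was at a log2 change of -0.07 (interval -0.51 to 0.37), Lag3 at 0.12 (-0.25 to 0.48) and Tigit at 0.22 (-0.24 to 0.68). Havcr2 had the largest estimate of the 7, 0.58 (interval -0.04 to 1.20, unadjusted p = 0.0644, edgeR). With anti-MIF, Havcr2 was at -0.72 (interval -1.33 to -0.12, unadjusted p = 0.0223, adjusted p = 1, edgeR) and Ctla4 at -0.47 (interval -0.88 to -0.05, unadjusted p = 0.029, adjusted p = 1), the 2 of 7 below an unadjusted p of 0.05. Pdcd1 was at -0.31 (-0.75 to 0.12), Tigit at -0.28, Lag3 at -0.06, Cd160 at -0.09 and Cd96 at 0.41 (-0.09 to 0.90).

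**Figure D4:**
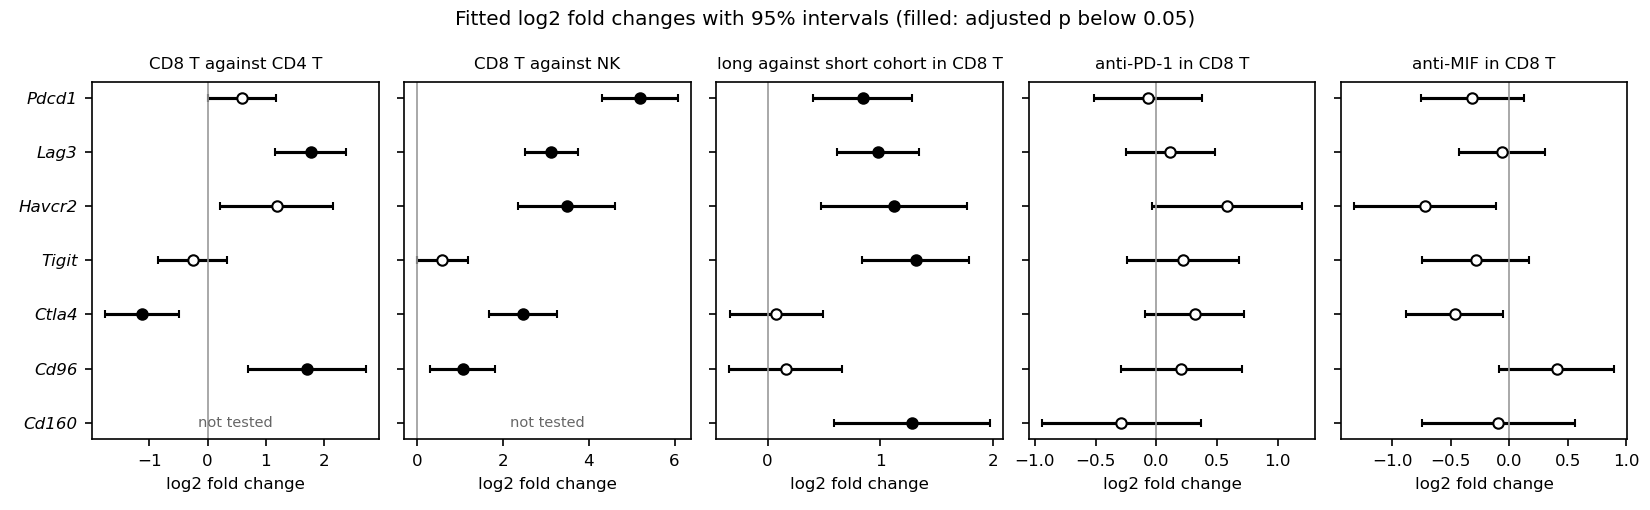
Fitted log2 fold changes (horizontal axes, each with its own scale) of the 7 receptors with 95% intervals in 5 comparisons, filled where the adjusted p was below 0.05. Against NK cells, 5 of 6 tested receptors are filled as higher in CD8 T cells. In the long cohort 5 of 7 are filled as higher, and no receptor is filled for either antibody. Against NK cells, the points of Pdcd1, Lag3, Havcr2 and Cd96 are a description. These genes were below the filter in NK cells alone and entered through the T cells. The Cd96 point against CD4 T cells is a description too, as Cd96 was below the filter in CD4 T cells alone.

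Within the short cohort the anti-PD-1 arm, with 114 of its 182 CD8 T cells, was the highest in Pdcd1, Lag3, Havcr2 and Tigit, and the isotype arm had 14 cells. Pdcd1 was 438.9 CPM there (95% Poisson interval 385.4 to 497.7), against 274.1 (162.4 to 433.1) with isotype. Havcr2 was 200.5 CPM (164.9 to 241.4), against 30.5 (3.69 to 110.0) with isotype, on 2 UMIs. In the long cohort the order was the other way, with Havcr2 at 265.4 CPM (210.1 to 330.8) with anti-PD-1 and 334.6 (277.6 to 399.8) with isotype. These are single arms and carry no test. The difference between cohorts in the anti-PD-1 effect on Havcr2 was -1.86 ± 0.588 (SE) on the log2 scale (unadjusted p = 0.00504, adjusted p = 0.752, edgeR), and 0 of 14 such tests over 7 receptors and 2 antibodies passed, with 2 at an unadjusted p under 0.05. In those fits 0.0203% (anti-PD-1) and 0.0406% (anti-MIF) of 4928 genes passed.

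In the other classes no receptor passed for either antibody, and none of these 18 tests had an unadjusted p under 0.05. In CD4 T cells 0 of 5 tested receptors passed, with 0% of 1648 genes called for anti-PD-1 and 0% for anti-MIF (38 and 54 at an unadjusted p under 0.05, edgeR, and 1 and 3 genes called by DESeq2). Ctla4 was at -0.92 (interval -1.90 to 0.06) and Tigit at -1.04 (interval -2.20 to 0.12) with anti-PD-1, on 5 to 15 cells an arm. In NK cells 0 of 3 passed, with 0.102% and 0.357% of 1961 genes called (111 and 97 at an unadjusted p under 0.05, and 0 and 5 called by DESeq2). The 2 genes called there for anti-PD-1 were Dnajb1 (2.23) and Lyz2 (5.23), the latter the gene that defined myeloid cells, and its part in the NK values was not tested. In myeloid cells Havcr2 was at 0.00 with anti-PD-1 (interval -0.26 to 0.25) and at -0.11 with anti-MIF (interval -0.36 to 0.14), with 0% and 0% of 9866 genes called (456 and 655 at an unadjusted p under 0.05, and 0 and 7 called by DESeq2).

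Ligands of the receptors were read in myeloid cells. Of the 10 ligands listed, the 3 tested against CD8 T cells, Cd86 (log2 difference -2.85), Cd274 (-2.28) and Lgals9 (-1.70), were all called lower in CD8 T cells (adjusted p = 5.88e-14, 4.99e-09 and 1.78e-08, edgeR), as were 36.4% of the 2880 genes. Tumor cells were not compared. Cd86 was also called higher in CD8 T than in CD4 T and in NK cells, the 1 called of 3 tested ligands in each. Over all genes, 6.6% and 7.01% were called higher in these comparisons. The source of the Cd86 UMIs in CD8 T cells was not tested. CD86 binds CTLA-4, PD-L1, the product of Cd274, binds PD-1, and galectin-9, the product of Lgals9, binds TIM-3. Cd274 lay between 150.1 and 349.8 CPM in the long and between 147.5 and 429.9 CPM in the short myeloid arms. Fgl1, a LAG-3 ligand, had 0 UMIs in all 8 myeloid arms. Between cohorts, 2 of 9 tested ligands changed in myeloid cells, Lgals9 up (0.50, adjusted p = 0.028) and Cd80, another CTLA-4 ligand, down (-0.94, adjusted p = 0.0489), where 8.98% of 9866 genes were called, and none was called for either antibody. Without the long anti-PD-1 arm, 43 in place of 886 genes were called in that cohort comparison. C1qa, a macrophage gene, had a UMI in 47.6% of long-cohort and 17.8% of short-cohort myeloid cells, and its part in the ligand values was not tested.

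The 5 genes whose pattern was most like that of Pdcd1, by Pearson r of log2(CPM + 1) over 30 sums of a class in an arm and among 8495 genes, were Cd3g (r = 0.97), Cxcr6 (0.969), Themis (0.965), Cd6 (0.963) and Gm8369 (0.957). Among the other receptors, Ctla4 was nearest (0.846, place 21), followed by Lag3 (0.715), Tigit (0.587), Cd96 (0.544), Cd160 (0.227) and Havcr2 (0.218, place 1718). Lag3 and Tigit (0.811) and Cd96 and Cd160 (0.771) were the closest of the other pairs, and Havcr2 had an r below 0 with each receptor but Pdcd1. The 30 points share libraries and differ mostly by class, so these values describe which classes hold a gene.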

How the data were processed

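Counts of UMIs per gene and barcode were deposited by the authors as filtered matrices, 1 per cohort, without normalization. The submitters' processing notes name Cell Ranger 7.1.0, Seurat 5.1.0, R 4.3.2 and DESeq2, and the genome build mm10. The annotation release is not given in the sources used here. HTODemux (Seurat 5.3.0, R 4.3.3, quantile 0.99) gave each barcode its arm, and only hashtag singlets were used. Cells with 200 to 5000 genes and at most 5% mitochondrial UMIs were kept. Doublets within an arm and free RNA were not removed. Hashtag 5, labelled anti-PD1-MIF-DDT, stands for no described treatment and entered no test, and its levels are set beside the isotype arm in the closing section only. The files hold 0 columns of samples not used.

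A cell with more than 1 lymphocyte rule met was left out of every class. UMIs were summed per arm and class (at least 5 cells) and tested with edgeR 4.0.16 (filterByExpr, TMM, glmQLFTest) and Benjamini-Hochberg adjustment over all genes tested, at 0.05. Class comparisons had the arm as a block, and long isotype had too few CD4 T and NK cells to enter. Treatment fits had additive terms for cohort, anti-PD-1 and anti-MIF within a class. Intervals are 95% and come from the fit. Levels of single arms have Poisson and shares Clopper-Pearson intervals, which cover counting error only. Nothing says that arms come from separate cultures or litters, so p-values measure the spread between arms. The fits were tested on simulated data. DESeq2 1.42.0, other filters, scalings and hashtag calls, and leaving out each arm were alternatives. The 7 genes, the lists and the rule for named genes (up to 4 genes of a list by smallest p, and the 3 genes of smallest p in a treatment comparison) were chosen with earlier results of these data known. Tox, Tcf7 and Klrc1 by arm, and the cohort test of shares, were added after the values were seen.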

Additional observations from a re-analysis of the deposited data

Results flagged for a closer look

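Cells of hashtag 5, which the described treatments do not cover, were searched for levels above the isotype arm of their cohort. Levels below it were not searched for. Of the 35 values compared, 7 were above it, with Poisson intervals that did not overlap. In the long cohort, 15 CD8 T cells held Lag3 at 839.4 CPM (665.6 to 1045), against 500.5 (430.2 to 579.0) with isotype, and Ctla4 at 787.0 CPM (619.0 to 986.5), against 345.6 (287.7 to 411.8). In the short cohort, 32 CD8 T cells held Pdcd1 at 572.2 CPM (463.4 to 698.7), against 274.1 (162.4 to 433.1), and Havcr2 at 172.8 CPM (115.8 to 248.2), against 30.5 (3.69 to 110.0). That isotype arm had 14 CD8 T cells, with 2 Havcr2 UMIs. The highest described arm in CD8 T cells had 712.3 CPM of Lag3 and 467.0 of Ctla4 in the long cohort. In the short cohort it had 438.9 CPM of Pdcd1 and 200.5 of Havcr2.

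Myeloid cells of that hashtag held Havcr2 at 287.5 CPM (266.2 to 310.1) in the long cohort, against 192.1 (163.7 to 224.1) with isotype, and at 243.5 CPM (230.4 to 257.0) in the short cohort, against 204.6 (191.0 to 218.9). Ctla4 in the short-cohort myeloid cells was 5.22 CPM (3.47 to 7.55), against 1.47 (0.538 to 3.19). Its share there, 18 of 808 cells (2.23%), was above the 1.97% used as the background level over a whole cohort and within the 0.965% to 2.69% of the 8 single myeloid arms, while its CPM was above all 8 (highest 3.92). Whether it differs from the background was not tested. Each is 1 hashtagged sample, and the intervals cover counting error only, so the spread between samples is not known.

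No outlier test was run, since each arm of a cohort is a single sample. Over all 4 classes, 32 tests of a receptor for a difference between cohorts in an antibody's effect gave 0 at an adjusted p under 0.05 and 3 at an unadjusted p under 0.05 (edgeR).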

How the results depend on the processing

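Of the recomputed counts of receptors called, 339 stayed within 1.5 times of the reported count and 8 did not. Of the recomputed fold changes of called receptors, 417 kept their direction and call, 51 kept the direction without the call and 0 reversed. With class genes at 2 UMIs or more, 3 receptors in place of 5 were called for the long against the short cohort in CD8 T cells. Without the low-count filter, 6 in place of 3 were called for CD8 T against CD4 T cells, and in the short cohort alone 2 in place of 4 for CD4 T against NK cells. With classes allowed to overlap, 1 in place of 0 was called between cohorts in myeloid cells. Without thinning, 9 in place of 0 of the 21 share tests passed, on cells of unequal depth and, in the pairs with CD4 T cells, on 7 in place of 5 arms. Leaving out each arm in turn gave 2 to 5 receptors for the long against the short cohort in CD8 T cells. The cause was not tested in any of these.

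Without the replicate block, which is the arm in class fits and the treatment terms beside the cohort in cohort fits, Havcr2 lost its call between cohorts in CD8 T cells (log2 0.89, adjusted p = 0.142, edgeR), and no other receptor call changed. Over all genes, the long against the short cohort in CD8 T cells gave 237 calls, 103 to 304 with an arm left out, 152 with class genes at 2 UMIs or more and 145 by DESeq2. For anti-PD-1 and anti-MIF in CD8 T cells, 0 genes became 45 and 44 without the low-count filter, 51 and 40 in the long cohort alone, 10 and 15 in the short cohort alone, and 4 to 24 and 4 to 17 with an arm left out, and 0 receptors were among them. Without that filter, 649 in place of 341 genes were called for CD8 T against CD4 T cells, 846 in place of 435 for CD8 T against NK, 911 in place of 581 for CD4 T against NK and 6182 in place of 2011 for CD8 T against myeloid cells. For the long against the short cohort in myeloid cells, 43 in place of 886 genes were called without the long anti-PD-1 arm. Within the long and the short cohort alone, 104 and 136 genes were called for CD8 T against CD4 T cells. The comparison of CD4 T cells with and without Foxp3 could not be fitted, and its alternatives were not run. The CD4 T and NK comparisons rest on 63 CD4 T and 141 NK cells over all arms, and Cd160 was below the low-count filter between classes.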
